A study of Mus musculus with 12 samples.

Results

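Immediate-early genes and their partners were followed through RNA-seq of mouse regulatory T cells (Tregs): the subunits of the transcription factor AP-1, the EGR and NR4A families, other induced factors, and the feedback genes that are switched on with them. The 37 genes were chosen by symbol from the deposited expression table, which held all 37 among its 17955 genes, and all 37 passed the filter on low counts with 12903 genes tested. The Tregs came from C57BL/6 mice aged 7 weeks, whose spleens and lymph nodes were sorted by flow cytometry for CD4+CD25+YFP+ cells. The 4 groups had 3 libraries each. The cKO DMαKG and cKO vehicle groups were Foxp3YFP-cre TKT fl/fl mice, in which Tkt, the gene of transketolase in the pentose phosphate pathway, is removed in cells that express Foxp3. The WT DMαKG and WT vehicle groups were Foxp3YFP-cre TKT+/+ mice, so that every mouse carried the Cre and the YFP reporter from the Foxp3 locus. DMαKG, a dimethyl ester of the metabolite α-ketoglutarate, or vehicle was in the drinking water from the dams' pregnancy until the offspring were adult.

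Immediate-early genes are transcribed within minutes of a signal because the factors that drive them, such as SRF with its partners, CREB and NF-κB, are already present in the resting cell. In T cells they are known for their response to the T cell receptor, through calcium and MAP kinase signalling, and also for their response to tissue handling and warming during cell isolation. Many of their products shut the response down again: DUSP phosphatases inactivate MAP kinases, ZFP36 proteins destabilise short-lived mRNAs, and IκBα and A20 restrain NF-κB.

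The promoters of 5 genes that are described in every library below are shown because each holds at least 1 of the motifs searched below, which are those of SRF, CREB, NF-κB, ETS factors, AP-1 and EGR factors and the TATA box. Each is the 250 bases before a RefSeq start on build GRCm38.p6, 5′ to 3′ on the gene's strand, with the matches to the searched motifs in capitals. They lie at chr12:85473640-85473889 on the plus strand for Fos, chr7:19310046-19310295 on the minus strand for Fosb, chr8:84978749-84978998 on the minus strand for Junb, chr15:101266596-101266845 on the plus strand for Nr4a1 and chr17:26508473-26508722 on the minus strand for Dusp1. The windows of Fosb and Nr4a1 belong to starts inside the full annotated span of those genes.
Fos: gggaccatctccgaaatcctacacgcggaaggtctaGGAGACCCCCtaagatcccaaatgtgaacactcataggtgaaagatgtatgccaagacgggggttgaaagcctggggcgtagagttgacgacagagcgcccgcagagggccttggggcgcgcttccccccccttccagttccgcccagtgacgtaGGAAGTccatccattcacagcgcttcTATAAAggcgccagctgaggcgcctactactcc
Fosb: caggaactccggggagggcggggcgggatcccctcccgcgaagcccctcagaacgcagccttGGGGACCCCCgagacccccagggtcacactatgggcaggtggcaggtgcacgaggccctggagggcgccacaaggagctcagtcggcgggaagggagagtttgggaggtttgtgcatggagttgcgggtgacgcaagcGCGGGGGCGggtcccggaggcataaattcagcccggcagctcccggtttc
Junb: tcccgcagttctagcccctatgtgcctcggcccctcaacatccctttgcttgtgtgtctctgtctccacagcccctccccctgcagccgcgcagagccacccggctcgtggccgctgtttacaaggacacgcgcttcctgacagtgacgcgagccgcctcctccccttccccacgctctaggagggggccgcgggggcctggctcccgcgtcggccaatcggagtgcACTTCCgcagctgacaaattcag
Nr4a1: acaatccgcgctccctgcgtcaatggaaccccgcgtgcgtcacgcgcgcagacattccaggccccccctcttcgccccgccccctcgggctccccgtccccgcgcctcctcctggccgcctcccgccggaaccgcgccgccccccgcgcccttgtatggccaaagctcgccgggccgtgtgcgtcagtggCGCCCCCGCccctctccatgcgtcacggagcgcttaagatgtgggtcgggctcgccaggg
Dusp1: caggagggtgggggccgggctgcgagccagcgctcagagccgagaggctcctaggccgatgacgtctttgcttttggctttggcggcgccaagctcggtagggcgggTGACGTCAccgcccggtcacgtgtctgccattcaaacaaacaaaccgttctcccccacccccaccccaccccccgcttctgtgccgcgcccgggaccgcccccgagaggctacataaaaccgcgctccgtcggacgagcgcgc
In Fos the capitals mark a κB site 214 bases before the start, an ETS core 59 bases before it and a TATA box 33 bases before it. In Fosb they mark a κB site at 188 bases and an EGR site at 50 bases. Junb held an ETS core at 23 bases, Nr4a1 an EGR site at 60 bases and Dusp1 a full cAMP response element at 143 bases. No match shown overlaps another.

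Of the 37 members, 29 had a promoter that was searched, with 39 windows in all. Egr1 lies on chromosome 18, which was left out for the members but not for the windows of all genes, so Egr1 was not searched. Cd69, Dusp4, Egr3, Ier2, Myc, Nfkbiz and Rgs1 had no promoter in the RefSeq table. Both strands were searched for 7 motifs. The EGR site GCGNGGGCG was in 25.6% of member windows and 4.70% of all 32851 windows, in 10 genes that include Fosb, Klf4, Nr4a1 and Nr4a2. The CArG box, bound by SRF, was in 15.4% of member windows, all of them of Dusp5, Egr2 or Zfp36, and in 1.47% of all windows. The cAMP response element TGACGTCA was in 10.3% of member windows and 1.55% of all windows, with matches in Btg2, Dusp1, Maff and Ppp1r15a. The κB site was in 20.5% of member windows and 7.25% of all windows. The AP-1 site TGANTCA was in 7.69% of member windows and 6.75% of all windows, close to the background. The ETS core GGAAGT was in 20.5% of member windows and 19.7% of all windows, and TATAAA was in 15.4% of member windows and 12.4% of all windows. A match describes letters in the window and was not tied to any difference between groups.

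The 12 libraries held 15706800 to 18878500 counts each. Tkt had 26.2 to 41.8 CPM, counts scaled to a common library size, in the 6 cKO libraries and 102 to 194 CPM in the 6 WT libraries. Foxp3 was at 280 to 545 CPM, Cd4 at 644 to 864 CPM and Il2ra at 467 to 776 CPM in every library. The mean of Y-linked genes was 0.99 and 1.65 CPM in cKO DMαKG replicates 1 and 3, 0.65 CPM in WT vehicle replicate 3, 13.9 CPM in WT DMαKG replicate 2 and 63.8 to 153 CPM in the other 8. The labels used here do not give the sex of the mice, so the levels are stated as measured.

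The members were abundant. By deposited TPM, which corrects for transcript length, Junb led with a mean level of 2752 TPM over the 12 libraries, followed by Tnfaip3 at 1823, Dusp1 at 1119, Nfkbia at 1062 and Rgs1 at 960. Fos had 657, Jun 461, Cd69 475 and Fosb 301 TPM, and at the low end Fosl2 had 16.2, Atf3 8.48 and Ier3 1.11 TPM. Ier3, an early gene of the stress response, was the only member with a mean under 1 CPM, with 0.16 to 1.37 CPM across libraries.

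The members swung together from library to library, and the swing crossed the groups. On the log2 CPM scale, the mean deviation of the 37 genes from their own 12-library means was 0.75, 0.71 and 0.38 in cKO DMαKG replicates 1, 2 and 3. It was -0.28, 0.81 and -1.45 in cKO vehicle replicates 2, 3 and 4. It was 0.45, 0.56 and -0.84 in WT DMαKG replicates 1, 2 and 3, and 0.33, 0.02 and -1.44 in WT vehicle replicates 2, 3 and 4. The following 3 libraries stood far below the others, 1 in each group except cKO DMαKG: cKO vehicle replicate 4, WT DMαKG replicate 3 and WT vehicle replicate 4. Another library, cKO vehicle replicate 3, was the highest of all and lies in the same group as the lowest.

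Counted by gene, 31, 35 and 19 of the 37 members were above their own 12-library median in cKO DMαKG replicates 1, 2 and 3. The counts were 4, 35 and 3 in cKO vehicle replicates 2, 3 and 4, 32, 33 and 2 in WT DMαKG replicates 1, 2 and 3, and 17, 8 and 3 in WT vehicle replicates 2, 3 and 4. Over all genes tested this share was 48.7% to 51.6% in every library. In 25 of the 37 members (67.6%) the 3 lowest libraries were exactly the 3 named above, against 465 of 12903 genes (3.604%), and in 0 members were they the 3 highest. The 3 libraries were picked because the members were low in them, so these shares are a description. The exceptions were Fos, Fosb, Egr1, Egr2, Egr3, Nr4a3, Ier3, Dusp2, Zfp36, Zfp36l1, Btg2 and Myc.

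**Figure D1:**
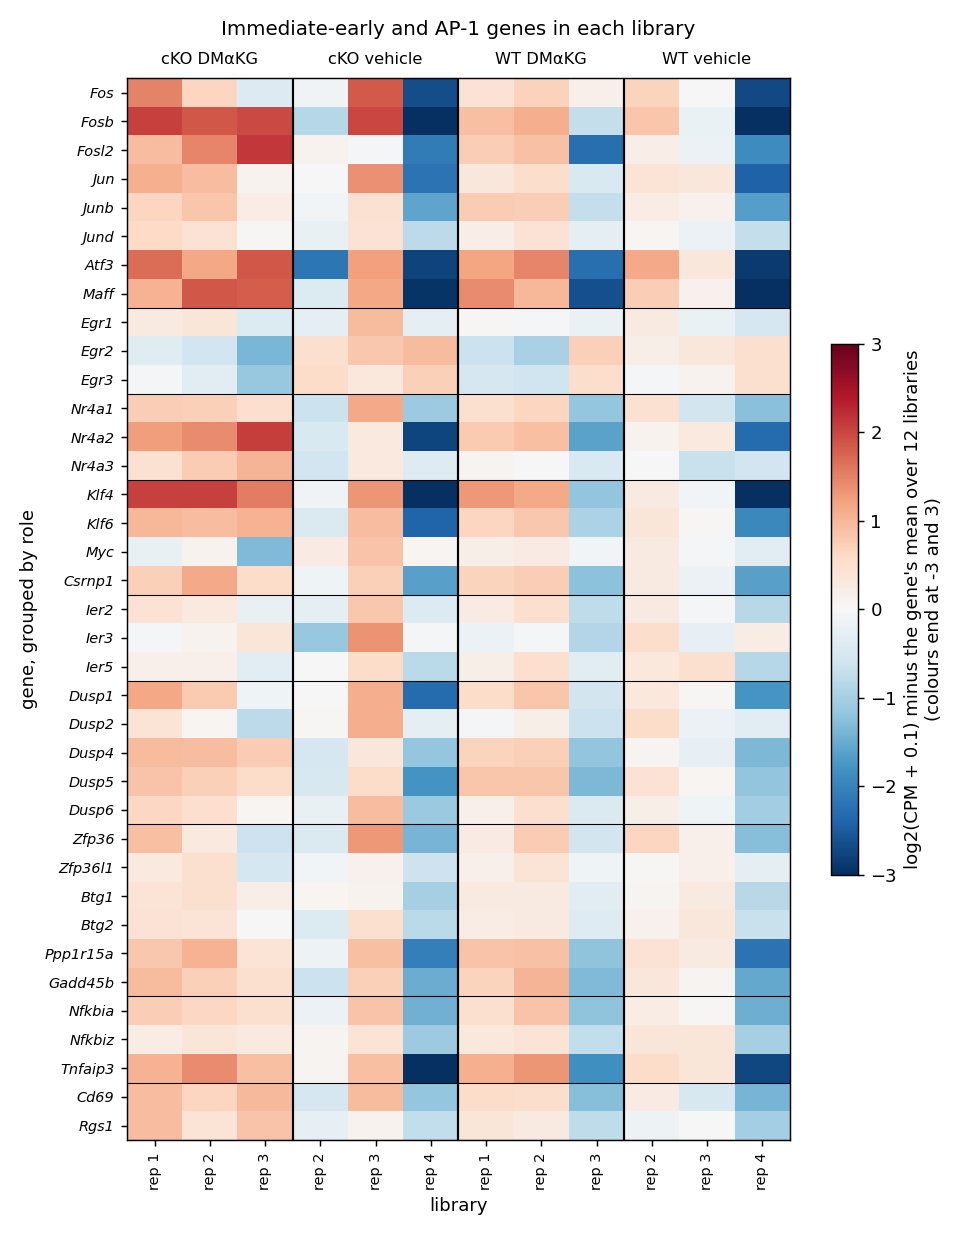
Each cell is a gene's log2(CPM + 0.1) in one library minus its mean over the 12 libraries, with the 37 genes grouped by role and the 4 groups of 3 libraries set apart by vertical lines. Blue columns run through most genes in cKO vehicle replicate 4, WT DMαKG replicate 3 and WT vehicle replicate 4, and Egr2 and Egr3 show the opposite colours.

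Markers of other cells and of library state were read beside this swing. The summed level of 12 dendritic cell markers was 137, 158 and 148 CPM in cKO vehicle replicate 4, WT DMαKG replicate 3 and WT vehicle replicate 4, and 169 to 330 CPM in the other 9 libraries. For 10 B and plasma cell markers the sum was 28.9, 29.2 and 22.5 CPM in those 3 libraries and 31.2 to 103 CPM in the others, and 12 macrophage and monocyte markers summed to 76.0, 57.8 and 80.5 CPM there and to 50.3 to 235 CPM elsewhere. The dendritic and B cell sums were thus lowest in the same 3 libraries, and their part in the result was not tested. Sums of 8 neutrophil markers (2.47 to 28.4 CPM) and 10 CD8 T and NK cell markers (39.8 to 54.5 CPM) did not separate the 3 libraries, and the highest neutrophil, B cell and macrophage sums were all in cKO DMαKG replicate 3. No marker of these 5 lists was at 0 in every library, although Ncr1, Klre1, Ly6g, Elane, Mpo and Retnlg stayed under 1 CPM. The 7 Treg markers summed to 3743, 4199 and 4154 CPM in the 3 libraries and to 4036 to 6444 CPM in the others. In bulk RNA, fewer cells that express a gene and less RNA per cell cannot be told apart.

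The 12 heat shock genes, chaperones induced by protein stress, followed the members only in part. Their mean deviation was 0.47, -0.74 and -0.50 in cKO DMαKG replicates 1, 2 and 3, -0.23, 1.07 and -0.43 in cKO vehicle replicates 2, 3 and 4, -0.20, -0.39 and 0.32 in WT DMαKG replicates 1, 2 and 3, and 0.54, 0.56 and -0.46 in WT vehicle replicates 2, 3 and 4. For both sets cKO vehicle replicate 3 was the highest library, and both replicates numbered 4 were below the mean. WT DMαKG replicate 3, low for the members, was above the mean for heat shock genes. Above the mean for the members but below it for heat shock genes were cKO DMαKG replicates 2 and 3 and WT DMαKG replicates 1 and 2. The slope on log2 transcript length of the genes' deviations from their own 12-library means stayed between -0.03 and 0.02 in every library.

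As a group the AP-1 subunits had the widest span of mean deviation among the 9 roles, from -2.49 to 1.195 on the log2 scale, although Jund and Junb moved less than Fosb. Fosb, a FOS-family partner of JUN proteins, had 1119, 978 and 1058 CPM in cKO DMαKG libraries, 148, 1076 and 10.3 CPM in cKO vehicle libraries, 505, 573 and 164 CPM in WT DMαKG libraries and 477, 233 and 13.5 CPM in WT vehicle libraries. Its highest library exceeded its lowest 109-fold, both of them cKO, and the SD of its log2 CPM over the 12 libraries was among the 3 largest with those of Klf4 and Atf3. The cKO DMαKG libraries lay together above every WT library, whereas cKO vehicle spanned nearly the whole range.

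Fos, the founding member of the family, had 1256, 707 and 341 CPM in cKO DMαKG, 417, 1622 and 70.8 CPM in cKO vehicle, 608, 726 and 500 CPM in WT DMαKG and 712, 448 and 69.6 CPM in WT vehicle. All groups overlapped, and both replicates numbered 4 were far below the rest. Jun, its usual dimer partner, had 1102, 1012 and 574 CPM in cKO DMαKG, 527, 1368 and 114 CPM in cKO vehicle, 672, 765 and 384 CPM in WT DMαKG and 702, 675 and 98.6 CPM in WT vehicle. Junb had 3098, 3551 and 2317 CPM in cKO DMαKG, 1892, 2748 and 663 CPM in cKO vehicle, 3359, 3348 and 1217 CPM in WT DMαKG and 2336, 2180 and 633 CPM in WT vehicle. For both genes the 3 low libraries were the lowest and every pair of groups overlapped.

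Fosl2, which encodes FRA2, had 59.6, 85.4 and 136 CPM in cKO DMαKG and 33.7, 30.2 and 7.17 CPM in cKO vehicle. It had 51.8, 57.1 and 6.40 CPM in WT DMαKG and 35.97, 27.4 and 8.39 CPM in WT vehicle. All DMαKG libraries except WT DMαKG replicate 3 were above all 6 vehicle libraries. Atf3, a stress-induced AP-1 partner, ranged over 0.52 to 16.5 CPM, Maff, a small MAF protein, over 2.62 to 92.3 CPM, and Jund, the JUN protein least dependent on induction, over 352 to 911 CPM.

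**Figure D2:**
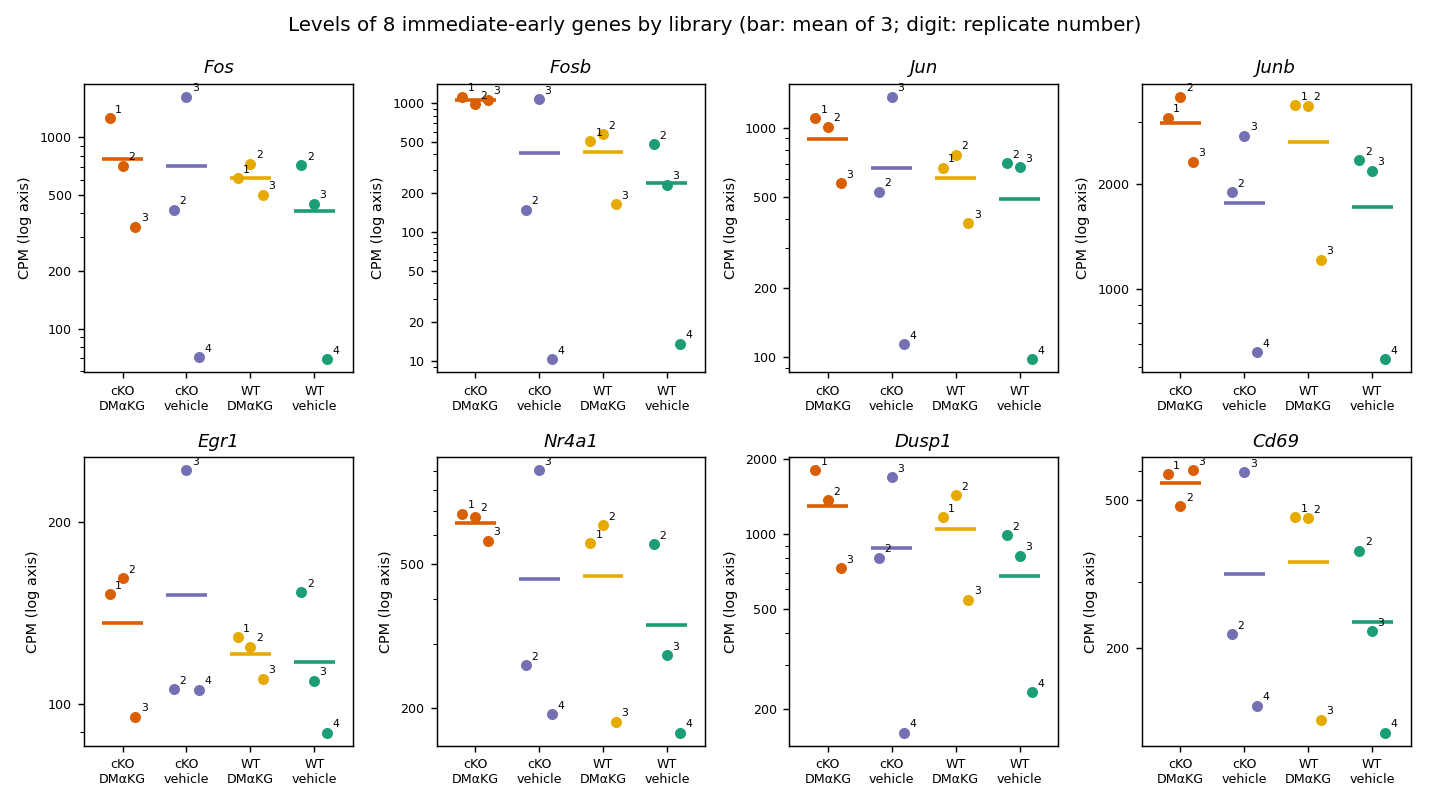
CPM of Fos, Fosb, Jun, Junb, Egr1, Nr4a1, Dusp1 and Cd69 in each library on log axes, with the 4 groups along the horizontal axis, a digit for the replicate number and a bar for the mean of 3. The replicates numbered 4 of both vehicle groups lie lowest or near lowest in every panel, for example 10.3 and 13.5 CPM for Fosb.

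The NR4A receptors, orphan nuclear receptors that report antigen receptor signalling in T cells, did not move as one. Nr4a1, which encodes NUR77, had 688, 675 and 580 CPM in cKO DMαKG, 262, 905 and 192 CPM in cKO vehicle, 569, 639 and 183 CPM in WT DMαKG and 566, 279 and 171 CPM in WT vehicle. Nr4a2 had 94.9, 107 and 167 CPM in cKO DMαKG, 28.9, 49.2 and 5.83 CPM in cKO vehicle, 68.3, 74.8 and 13.1 CPM in WT DMαKG and 43.1, 49.0 and 8.03 CPM in WT vehicle. Nr4a1 followed the library swing, and Nr4a2 did so with the cKO DMαKG libraries above all 9 others. An overlapping gene model, LOC105244150, shares part of the Nr4a2 locus, so reads there could be split between them. Nr4a3 was steadier, with 145, 177 and 212 CPM in cKO DMαKG, 70.1, 129 and 80.2 CPM in cKO vehicle, 111, 105 and 76.8 CPM in WT DMαKG and 106, 66.3 and 70.3 CPM in WT vehicle. Here too the 3 cKO DMαKG libraries were the highest of all 12.

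The EGR factors departed from the other members. Egr2, a zinc finger factor that limits T cell activation together with Egr3, had 23.96, 20.5 and 11.9 CPM in cKO DMαKG, 43.1, 54.0 and 59.8 CPM in cKO vehicle, 19.7, 15.6 and 50.7 CPM in WT DMαKG and 34.8, 38.8 and 43.4 CPM in WT vehicle. Egr3 had 35.3, 29.3 and 16.6 CPM in cKO DMαKG, 53.8, 46.0 and 59.8 CPM in cKO vehicle, 25.6, 24.1 and 52.8 CPM in WT DMαKG and 34.9, 39.4 and 50.7 CPM in WT vehicle. Both genes were low in 5 of the 6 DMαKG libraries, and for Egr2 all 5 lay below every vehicle library. WT DMαKG replicate 3 was the exception, at a level within the vehicle range for both genes. Egr1, the fastest of the family, had 152, 162 and 95.4 CPM in cKO DMαKG, 106, 243 and 106 CPM in cKO vehicle, 129, 125 and 110 CPM in WT DMαKG and 153, 109 and 89.7 CPM in WT vehicle. Its SD on the log2 scale was, with that of Zfp36l1, among the 2 smallest of the members, and its groups overlapped.

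Among the other induced factors, Klf4, a Krüppel-like factor tied to T cell quiescence, had 269, 270 and 189 CPM in cKO DMαKG, 60.8, 164 and 3.71 CPM in cKO vehicle, 161, 144 and 28.7 CPM in WT DMαKG and 78.1, 61.1 and 3.46 CPM in WT vehicle. Klf6 ranged over 131 to 1439 CPM and Csrnp1 over 83.5 to 570 CPM. Myc, the growth regulator, behaved differently, with 103, 129 and 47.6 CPM in cKO DMαKG, 142, 216 and 125 CPM in cKO vehicle, 136, 142 and 112 CPM in WT DMαKG and 144, 117 and 95.5 CPM in WT vehicle. Klf4 was among the most variable members and Myc was lowest in cKO DMαKG replicate 3, where 19 of the 37 members were above their own median.

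The feedback genes carried the library swing as well. In cKO vehicle replicate 4 the mean deviation on the log2 scale was -1.88 for the NF-κB feedback genes, -1.34 for the MAP kinase phosphatases, -1.23 for the RNA-binding and growth-restraint genes and -0.94 for Cd69 and Rgs1, against -2.49 for the AP-1 subunits and -2.03 for the other induced factors. Tnfaip3, which encodes the NF-κB inhibitor A20, had 5249, 6824 and 4760 CPM in cKO DMαKG, 2667, 4752 and 291 CPM in cKO vehicle, 5344, 6398 and 709 CPM in WT DMαKG and 3710, 3239 and 383 CPM in WT vehicle. The 3 low libraries lay far below the other 9, none of which was under 2667 CPM. Nfkbia, the gene of IκBα, ranged over 236 to 1189 CPM and Nfkbiz over 154 to 433 CPM with the same 3 libraries lowest.

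Dusp1, a nuclear MAP kinase phosphatase, had 1797, 1369 and 729 CPM in cKO DMαKG, 804, 1686 and 160 CPM in cKO vehicle, 1166, 1428 and 545 CPM in WT DMαKG and 988, 819 and 232 CPM in WT vehicle. Dusp4, a related phosphatase, had 350, 344 and 308 CPM in cKO DMαKG and 128, 231 and 81.8 CPM in cKO vehicle. It had 289, 301 and 80.5 CPM in WT DMαKG and 192, 154 and 71.8 CPM in WT vehicle. Dusp4 was above all 6 vehicle libraries in every DMαKG library except WT DMαKG replicate 3, while Dusp1 overlapped between all groups.

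Cd69, the early activation marker that holds lymphocytes in tissue, had 589, 482 and 602 CPM in cKO DMαKG, 217, 595 and 139 CPM in cKO vehicle, 450, 447 and 128 CPM in WT DMαKG and 365, 221 and 118 CPM in WT vehicle. Rgs1, a damper of G protein signalling from chemokine receptors, had 1002, 698 and 962 CPM in cKO DMαKG, 446, 571 and 317 CPM in cKO vehicle, 682, 633 and 311 CPM in WT DMαKG and 473, 534 and 259 CPM in WT vehicle. Both were higher in every cKO DMαKG library than in every WT DMαKG library. Of the 6 RNA-binding and growth-restraint genes, 3 had narrow ranges: Zfp36l1 ranged over 422 to 907 CPM, Btg1 over 806 to 2245 CPM and Btg2 over 152 to 370 CPM. Zfp36, which destabilises cytokine mRNAs, had a wider range of 228 to 1465 CPM. Ppp1r15a, the stress phosphatase subunit GADD34, ranged over 148 to 1415 CPM, and its locus overlaps the gene model of Tulp2. Gadd45b ranged over 29.0 to 170 CPM.

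DMαKG was compared with vehicle within each genotype by edgeR's quasi-likelihood test, with p-values adjusted by the Benjamini-Hochberg method over all 12903 genes and a threshold of 0.05. In cKO Tregs, Nr4a3 averaged 178 ± 33.8 CPM with DMαKG and 93.1 ± 31.5 CPM with vehicle, and Egr2 averaged 18.8 ± 6.22 CPM with DMαKG and 52.3 ± 8.51 CPM with vehicle (SD, n = 3 each). The log2 fold change was 0.93 (SE 0.25) for Nr4a3, with edgeR adjusted p = 0.154, and -1.48 (SE 0.40) for Egr2, with edgeR adjusted p = 0.156. Egr3 had -0.97 (SE 0.32, edgeR adjusted p = 0.195) and Rgs1 had 0.997 (SE 0.33, edgeR adjusted p = 0.198). None of these passed, and edgeR called 0 of the 37 members, with 0% of all genes called. At an unadjusted p under 0.05 there were 8 members, 5 higher (Nr4a3, Rgs1, Nr4a2, Fosl2 and Dusp4) and 3 lower (Egr2, Egr3 and Myc), where 17.3% of all genes reached that level.

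The other tools did call members in cKO Tregs. DESeq2's Wald test called 3, Egr2 lower and Nr4a3 and Rgs1 higher, where it called 3.01% of all genes. The limma voom test with sample quality weights called Egr2 lower, where it called 3.49% of all genes. Without WT DMαKG replicate 3, which is in neither group, edgeR also called Egr2 with an adjusted p of 0.030, where 1.04% of 13112 genes tested were called. The log2 fold change of Egr2 was -1.25 to -1.48 across these fits. No other edgeR fit with a single library left out called a member, and WT DMαKG replicate 3 was singled out after the values were seen.

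By plain separation of libraries, 9 members were higher in all 3 cKO DMαKG libraries than in all 3 cKO vehicle libraries, namely Fosl2, Nr4a2, Nr4a3, Dusp4, Klf4, Klf6, Btg1, Tnfaip3 and Rgs1. Egr2 and Egr3 were lower in all 3. Together these 11 of 37 stand beside 21.1% of all genes, of which 8.91% were separated upward and 12.2% downward. Over the 37 members, 30 had a positive and 7 a negative fold change and the median was 0.56, against 50.4% positive and a median of 0.00 over all genes. That median rested on single libraries: it was 0.21 without cKO vehicle replicate 4 and 1.31 without cKO vehicle replicate 3. It was 0.23 without the 3 low libraries and 0.36 with the level of Y-linked genes as a covariate. In the same contrast 10 of 10 B and plasma cell markers and 11 of 12 macrophage and monocyte markers had positive fold changes, whereas 0 of 6 erythroid markers tested did, with a median of -1.31. The B and plasma cell markers summed to 44.4 to 103 CPM in cKO DMαKG and 28.9 to 36.4 CPM in cKO vehicle, and the macrophage and monocyte markers to 90.1 to 235 CPM in cKO DMαKG and 50.3 to 120 CPM in cKO vehicle. None of these markers passed edgeR's test, and their part in the result was not tested.

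In WT Tregs no member was separated between DMαKG and vehicle, where 8.45% of all genes were. Dusp4 averaged 224 ± 124 CPM with DMαKG and 139 ± 61.5 CPM with vehicle (SD, n = 3 each), a log2 fold change of 0.68 (SE 0.53, edgeR adjusted p = 0.999). Jund had 0.37 (SE 0.30), Egr2 -0.44 (SE 0.39) and Nr4a3 0.27 (SE 0.25), each with edgeR adjusted p = 0.999. The edgeR test called 0 members and 0% of all genes. At an unadjusted p under 0.05 there were 0 members, where 2.73% of all genes reached that level. DESeq2 and limma voom called 0 members as well, where they called 0.0155% and 0.062% of genes. The members' fold changes were positive in 33 and negative in 4, with a median of 0.45. Over all genes 49.8% were positive and the median was -0.001. The members' median was 0.11 without WT vehicle replicate 4, 0.16 without WT DMαKG replicate 2 and 0.81 without WT vehicle replicate 2.

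**Figure D3:**
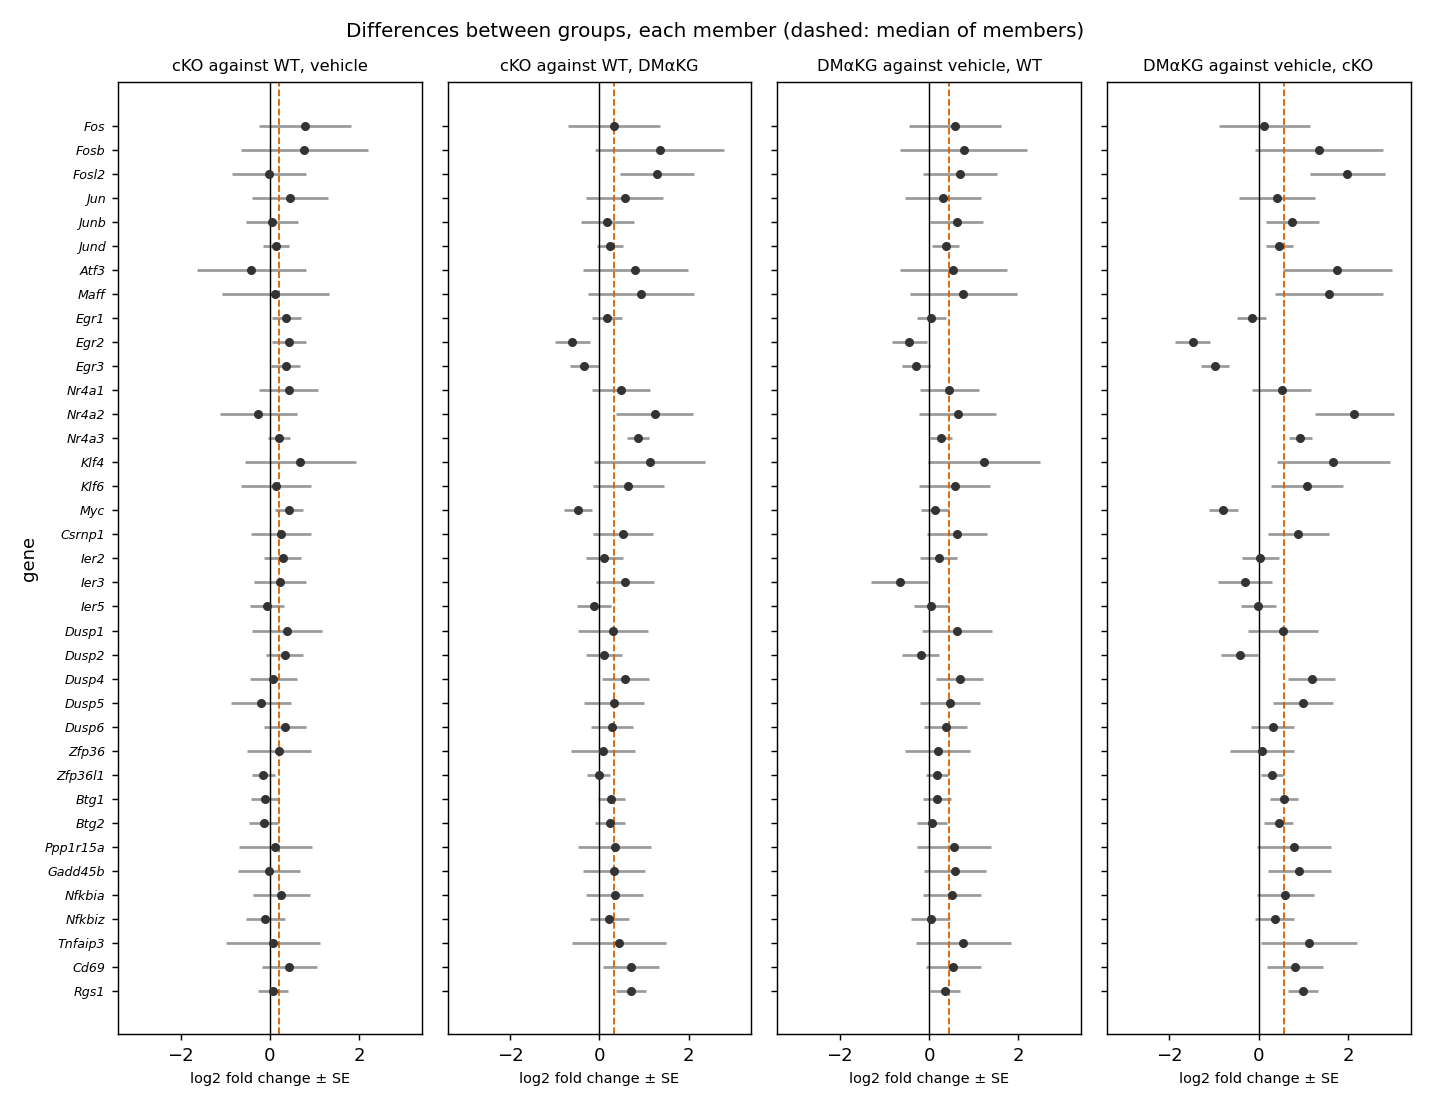
Log2 fold change and its SE for each of the 37 members in the 4 pairwise comparisons, with the members' median dashed. Most genes lie right of 0 under DMαKG, with medians of 0.56 in cKO and 0.45 in WT, whereas Egr2 and Egr3 lie left of 0 in both genotypes.

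Averaged over the genotypes, the 2 members with the smallest p for DMαKG were Nr4a3, with a log2 fold change of 0.60 (SE 0.18, edgeR adjusted p = 0.172), and Egr2, with -0.96 (SE 0.28, edgeR adjusted p = 0.174). The edgeR test called 0 members and 0.00775% of all genes, and 7 members had an unadjusted p under 0.05, 5 higher and 2 lower, with 15.9% of all genes at that level. DESeq2 called Egr2 lower and Nr4a3 higher, where it called 2.57% of genes. The limma voom test called Egr2 and Egr3 lower and Rgs1 higher, where it called 12% of genes. Without WT DMαKG replicate 3, edgeR called the same 3 genes in the same directions, where it called 4.72% of genes. Egr2 then had a log2 fold change of -1.31 with an edgeR adjusted p of 0.0067. No other edgeR fit with a single library left out called a member. This library was singled out after the values were seen, so these calls are a description.

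Without the 3 low libraries together, edgeR called 4 members for DMαKG averaged over genotypes, Egr2 lower and Nr4a2, Fosl2 and Dusp4 higher, where it called 1.26% of genes. Each genotype then had 2 vehicle libraries, and WT had 2 DMαKG libraries. Because the 3 libraries were picked for low levels of the members themselves, these 4 calls are a description. In the same set the members' median was 0.34 against 0.55 with all libraries. Across all 12 libraries 0 members separated all 6 DMαKG from all 6 vehicle libraries, where 0.488% of genes did. Leaving out WT DMαKG replicate 3 alone, 5 members (Fosl2, Nr4a2, Dusp4, Tnfaip3 and Rgs1) were above and 1 (Egr2) below every vehicle library, where 7.31% of genes were separated, 2.11% upward and 5.20% downward. That library was left out after the values were seen.

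**Figure D4:**
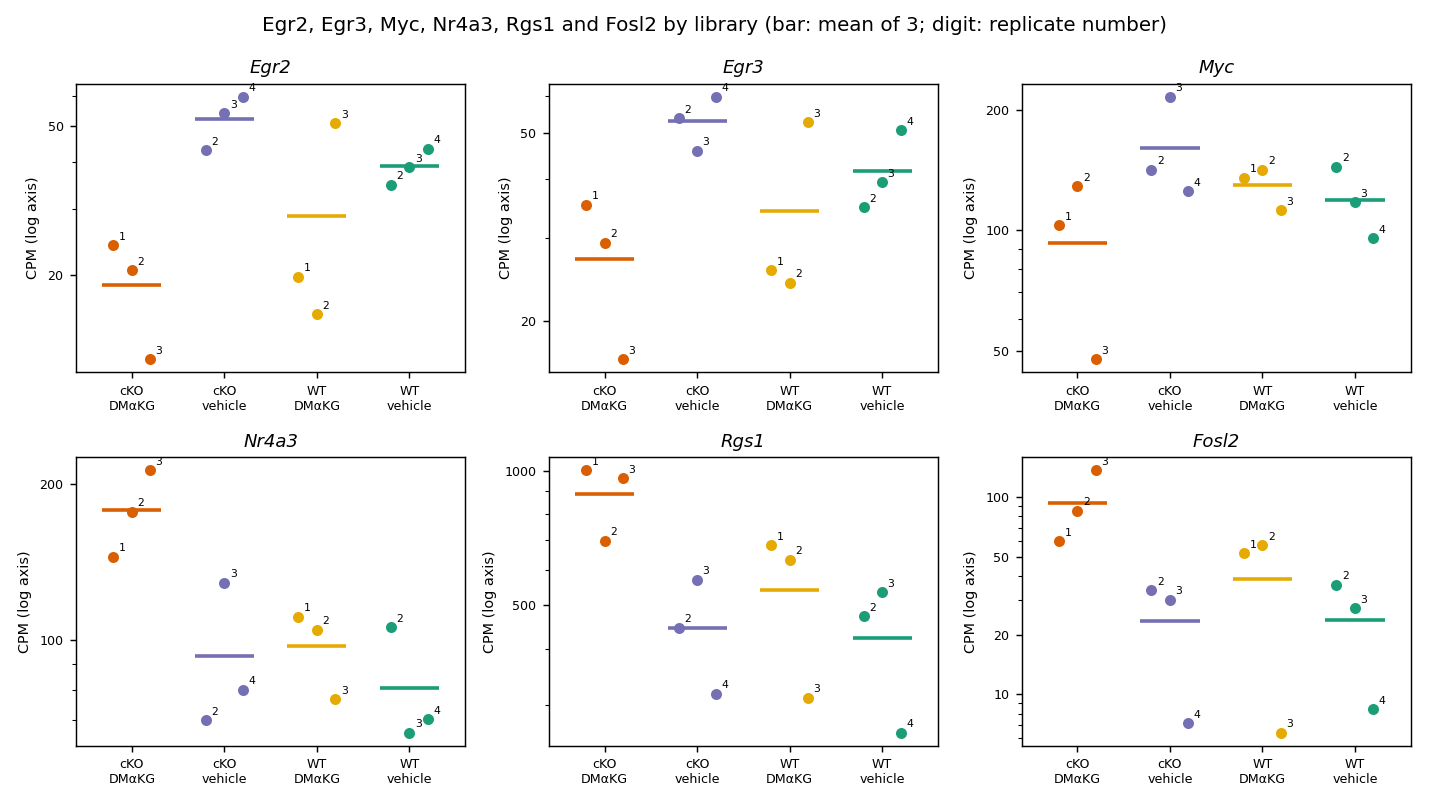
CPM of Egr2, Egr3, Myc, Nr4a3, Rgs1 and Fosl2 in each library on log axes, drawn by group with the replicate number and the mean of 3. For Egr2 the DMαKG libraries lie at 11.9 to 23.96 CPM apart from WT DMαKG replicate 3 at 50.7 CPM, and the vehicle libraries at 34.8 to 59.8 CPM.

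The loss of Tkt was compared under each treatment. Under DMαKG, Nr4a3 averaged 178 ± 33.8 CPM in cKO and 97.5 ± 18.1 CPM in WT Tregs (SD, n = 3 each), a log2 fold change of 0.87 (SE 0.25, edgeR adjusted p = 0.256). Rgs1 averaged 887 ± 165 CPM in cKO and 542 ± 202 CPM in WT, a log2 fold change of 0.71 (SE 0.33, edgeR adjusted p = 0.491). Fosl2 had 1.29 (SE 0.82, edgeR adjusted p = 0.627) and Egr2 -0.61 (SE 0.39, edgeR adjusted p = 0.622), and the Egr2 value was 0.09 without WT DMαKG replicate 3. The edgeR test called 0 members and 0.186% of all genes, and Nr4a3 alone had an unadjusted p under 0.05, a level reached by 10.4% of all genes. DESeq2 and limma voom also called 0 members, where they called 1.11% and 1.84% of genes.

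Still under DMαKG, 9 members (Fosb, Fosl2, Nr4a2, Nr4a3, Dusp4, Klf4, Klf6, Cd69 and Rgs1) were higher in every cKO library than in every WT library and 0 were lower, where 15% of all genes were separated, 7.92% upward. The members' median was 0.33 with 32 of 37 positive, and 0.10 without WT DMαKG replicate 3 or without the 3 low libraries. With the level of Y-linked genes as a covariate it was 0.18. The 10 B and plasma cell markers were all positive here too, with sums of 44.4 to 103 CPM in cKO DMαKG and 29.2 to 31.9 CPM in WT DMαKG, and their part in the result was not tested.

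Under vehicle the cKO and WT libraries overlapped for all 37 members, where 15.3% of all genes were separated. The 4 members with the smallest p were Myc, with a log2 fold change of 0.43 (SE 0.31, edgeR adjusted p = 0.876), Egr1 with 0.37 (SE 0.33, edgeR adjusted p = 0.922), Egr3 with 0.35 (SE 0.32, edgeR adjusted p = 0.922) and Egr2 with 0.42 (SE 0.38, edgeR adjusted p = 0.926). Myc averaged 161 ± 48.3 CPM in cKO and 119 ± 24.4 CPM in WT, and Egr1 averaged 152 ± 79.5 CPM in cKO and 117 ± 32.5 CPM in WT (SD, n = 3 each). The edgeR test called 0 members and 0.062% of all genes. At an unadjusted p under 0.05 there were 0 members, where 7.29% of all genes reached that level. DESeq2 and limma voom called 0 members, where they called 0.775% and 1.9% of genes. The median of the members was 0.20, with 27 positive and 10 negative, where 51.6% of all genes were positive. It was -0.45 without cKO vehicle replicate 3 and -0.12 without WT vehicle replicate 4, so its sign rested on each of these libraries, and it was 0.38 by limma voom.

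Averaged over treatments, Nr4a3 had a log2 fold change of 0.54 for cKO against WT (SE 0.18, edgeR adjusted p = 0.205) and Rgs1 had 0.39 (SE 0.23, edgeR adjusted p = 0.541). The edgeR test called 0 members, where 1.01% of genes were called. At an unadjusted p under 0.05 there was 1 member, where 12.8% of all genes reached that level. DESeq2 and limma voom called 0 members, where they called 3.08% and 8.04% of genes. The members' median was 0.27, with 33 of 37 positive, where 48.9% of all genes were positive. It was -0.09 without cKO vehicle replicate 3. Among markers of other cells, the B cell receptor inhibitor Cd22 (0.91, SE 0.19, edgeR adjusted p = 0.042) was higher and the cytotoxic granule gene Nkg7 (-0.78, SE 0.16, edgeR adjusted p = 0.038) was lower in cKO, and their part in the members' values was not tested.

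Whether DMαKG acted differently in the 2 genotypes was tested by the interaction, which was cKO minus WT for the DMαKG effect. Myc had -0.91 (SE 0.45) and Nr4a3 had 0.66 (SE 0.35), both with edgeR adjusted p = 0.955. The edgeR test called 0 members and 0% of genes, with 0 members under an unadjusted p of 0.05, where 3.64% of all genes were. DESeq2 and limma voom called 0 members with 0.00775% of genes each. Egr2 had an interaction of -1.04 (SE 0.55, edgeR adjusted p = 0.955), so a difference between genotypes in its DMαKG effect was not shown. The members' median of 0.27 was between -0.14 and 0.99 as single libraries were left out.

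**Figure D5:**
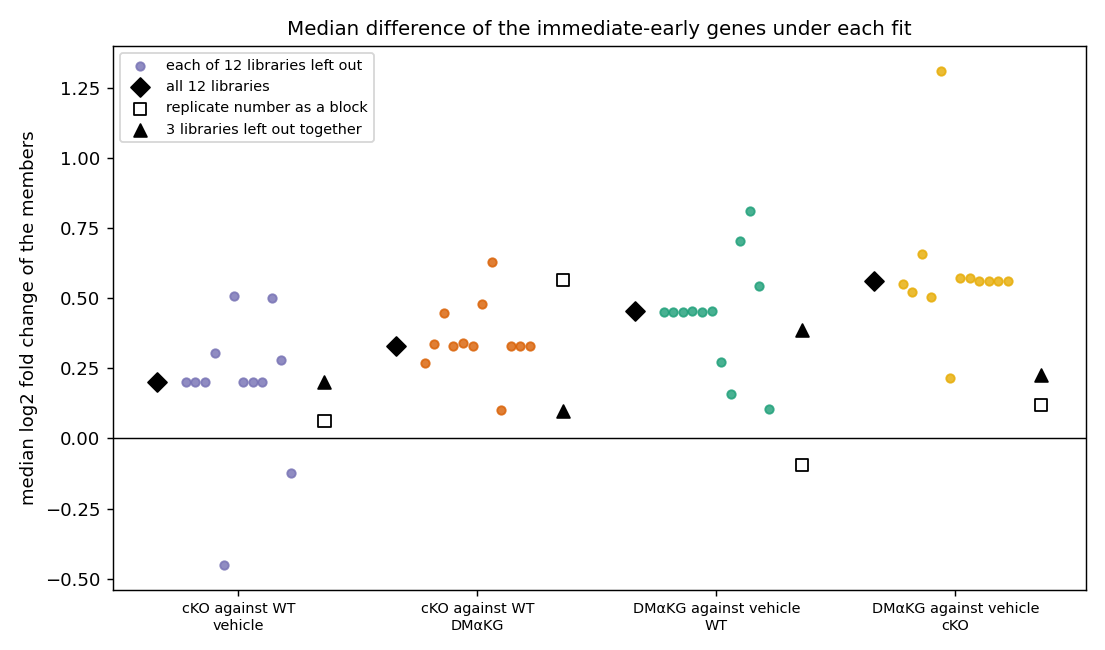
Median log2 fold change of the 37 members in the 4 pairwise comparisons, from all 12 libraries (diamonds), with each library left out in turn (dots), with the replicate number as a block (open squares) and without the 3 low libraries (triangles). The dots spread from -0.45 to 0.51 for cKO against WT under vehicle and from 0.21 to 1.31 for DMαKG against vehicle in cKO.

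Other genes of the same response shared the library swing. Of 45 further early-response genes, 43 were tested, and their mean deviation was -0.99, -0.70 and -0.84 in cKO vehicle replicate 4, WT DMαKG replicate 3 and WT vehicle replicate 4, against -0.17 to 0.52 in the other 9 libraries. For 24 of the 43, among them Klf2, Per1, Sik1, Pim1, Irf1, Rel and Cxcr4, these 3 libraries were the 3 lowest. The mean deviation of the 36 genes of upstream signalling to SRF, CREB, AP-1 and NFAT stayed within -0.25 to 0.07 in all libraries. For no gene of that list were these 3 libraries the 3 lowest.

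None of these lists gave a call by edgeR in any of the 7 comparisons. For DMαKG in cKO, the early-response list had 32 positive and 11 negative fold changes with a median of 0.33, and Dusp14, a phosphatase, had the smallest p, with 1.34 (SE 0.32, edgeR adjusted p = 0.144). Dusp14 had 19.0, 19.1 and 23.0 CPM in cKO DMαKG and 6.55, 11.1 and 6.45 CPM in cKO vehicle. In WT the list had 34 positive and 9 negative with a median of 0.29, and the smallest p was for Mafg, with -0.36 (SE 0.14, edgeR adjusted p = 0.999). For cKO against WT averaged over treatments, Batf, an AP-1 factor of effector T cells, had 0.40 (SE 0.11, edgeR adjusted p = 0.109). In the upstream list, Crem, a cAMP-responsive factor, had 0.79 (SE 0.25, edgeR adjusted p = 0.187) for DMαKG in cKO, and Creb1 had -0.30 (SE 0.07, edgeR adjusted p = 0.089) for cKO against WT averaged over treatments. The heat shock list had medians of -0.10 for DMαKG in cKO, with 4 of 12 positive, and -0.26 in WT, with 1 of 12 positive. Its smallest p was for Dnajb1, with -0.68 (SE 0.25, edgeR adjusted p = 0.213) for DMαKG in cKO.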

How the data were processed

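Estimated counts, TPM and FPKM per gene were deposited by the authors for 12 libraries. Per the submitters' processing notes, the build was mm10 and the tools were featureCounts 1.5.0-p3, HISAT2 2.0.5 and DESeq2 1.16.1; the roles and the strand setting are not given in the sources used here. The deposited estimated counts (36.0% of them not whole) were rounded to whole numbers for the count tests, which had been planned for whole counts. The deposited TPM served only for levels between genes, and the deposited FPKM was not used. Library sizes were 15706800 to 18878500 counts, 153 genes were at 0 in every library, and the common biological coefficient of variation was 19.7%. edgeR 4.0.16 (TMM, filterByExpr, robust quasi-likelihood fit with 1 mean per group, 8 residual degrees of freedom) gave the tests, checked on simulated counts. limma 3.58.1 voom and DESeq2 1.42.0 in R 4.3.3 were alternatives, as were other size factors, no filter, only the groups compared, a replicate block, each library left out, 3 libraries left out together and a Y-linked covariate, the last 2 chosen after seeing the data. CPM used TMM-scaled library sizes, and log2 CPM used a prior count of 0.5. Coordinates and promoters are RefSeq's for GRCm38.p6. Named members were 8 set genes in every library, the members with the smallest p (4 per pairwise comparison, 2 per other comparison), and the 3 most and 2 least variable; some others were added after their values were seen. The members and lists were chosen with earlier results of these data known. The design text gives 3 mice per group, and p-values measure only the spread between these libraries.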

Additional observations from a re-analysis of the deposited data

How the results depend on the processing

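Member calls were 0 in all fits for 5 of the 7 comparisons. The exceptions were DMαKG in cKO Tregs and DMαKG averaged over genotypes. In cKO Tregs there were 3 members by DESeq2, 1 by limma voom and 0 to 1 with single libraries left out. Averaged over genotypes there were 2 by DESeq2, 3 by limma voom and 0 to 3 with single libraries left out. All calls with a single library left out came without WT DMαKG replicate 3. Without the 3 low libraries there were 4 averaged over genotypes, a description because the libraries were picked for low members. Over all genes, edgeR, DESeq2 and limma voom called 8, 100 and 245 genes for cKO against WT under vehicle, 24, 143 and 237 under DMαKG, 0, 389 and 450 for DMαKG in cKO, and 1, 331 and 1546 for DMαKG averaged over genotypes. Over the refits of named members, 420 values kept direction and side of the threshold, 10 became called and 4 changed sign. Egr1 in cKO against WT under vehicle lay between -0.16 and 0.61 (log2) with single libraries left out. Egr2 in cKO against WT under DMαKG lay between -0.90 and 0.087, and had 0.12 by limma voom and 0.084 without the 3 low libraries. The cause was not tested. The interaction median was -0.14 without the 3 low libraries, -0.11 by limma voom and -0.05 with the Y-linked covariate. That covariate gave 0.36 for DMαKG in cKO and 0.18 for cKO against WT under DMαKG. Whether the replicate numbers pair the samples is not known. Same-numbered cKO and WT libraries correlated at -0.13, 0.12 and 0.41 under vehicle and -0.20, -0.08 and -0.26 under DMαKG. The 0.41 was for the vehicle replicates numbered 4. WT DMαKG replicate 3 and WT vehicle replicate 4, which differ in number, correlated at 0.415. Between DMαKG and vehicle, the replicates numbered 2 and 3 correlated at 0.20 and -0.21 in WT and at 0.17 and 0.04 in cKO. Not every library correlated best with its own number, but with 3 libraries per group these correlations cannot exclude pairing. When replicate number entered as a block, the members' median for DMαKG was 0.12 in cKO, with 23 of 37 higher. It was -0.10 in WT, with 8 of 37 higher, so the direction turned in WT, and 0 members were called. Replicate 1 was present only with DMαKG and replicate 4 only with vehicle. In that fit only replicates 2 and 3 held both treatments within a block. Totals ran over 15706800 to 18878500 counts, and each group had 3 libraries.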
